A study of Mus musculus with 18 samples.

Results

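The oligos described here were the 8-base sequences (8-mers) that hold an E-box-like core, CANNTG, without the central CpG of CACGTG, on protein binding microarrays. Such an array carries many short double-stranded DNA probes, a tagged protein is bound to them, and the fluorescence of each probe reports how much protein it holds. Each 8-mer has a z-score on each array, a linear score whose median over all 8-mers lies near 0, so that a high score means bright probes. The rule took every 8-mer in the table with cytosine-adenine, any pair of bases and thymine-guanine, except those with CpG in the middle. It gave 719 of 65530 8-mers, with 15 different hexamer cores, which fall into 9 groups by their middle bases once reverse complements are merged. The set was chosen by its high z-scores on the array labelled JUND 5hmC replicate 2, so its values on that array are a description and carry no test.

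The study measured the DNA-binding domains of 3 mouse basic leucine zipper (bZIP) proteins, CREB1, ATF1 and JUND. Each carried a glutathione S-transferase tag and was made in a cell-free transcription and translation system from 180 ng of plasmid. The probes were made double-stranded with 5-methylcytosine (5mC), with 5-hydroxymethylcytosine (5hmC) or with plain cytosine (C). The modified base therefore stood only on the newly synthesized strand, and the printed strand carried plain cytosine in every group (hemi-modified DNA). There were 18 arrays in 9 groups, with 2 arrays for each protein and kind of DNA. The labels do not tell whether replicate arrays used separately made protein. A p-value here therefore reflects the spread between arrays, which may be purely technical. An isolated domain on naked DNA is what was measured, without a partner protein or chromatin.

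CANNTG is known as the E-box, the site of basic helix-loop-helix (bHLH) proteins, which bind it as dimers with each partner contacting a CAN half-site. The middle bases separate the classes: CAGCTG is the site of MYOD1 and TFAP4, CAGATG and CATATG those of NEUROD1, ATOH1, TWIST1 and the OLIG proteins, CATGTG a site of MITF, and CAGGTG that of TCF3 and, as a zinc-finger site, of ZEB1 and the SNAIL proteins. The bZIP proteins on these arrays are known for other sites: JUND, as part of AP-1, binds TGACTCA, and CREB1 and ATF1 bind the cyclic AMP response element (CRE) TGACGTCA through its half-site TGAC.

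The array labelled JUND 5hmC replicate 2 stood apart from the others. Its Pearson correlation with JUND 5hmC replicate 1 over all 8-mers was 0.29, where the arrays of the other 8 groups correlated at 0.651 to 0.957 with their own replicate. It was also the dimmest array: its median signal was 519 with a median local background of 335, and on 6326 of 40330 probes the background exceeded the signal. The AP-1 sites that define JUND binding were not high on it, nor on JUND 5mC replicate 2. The 16 8-mers that hold the AP-1 site had a median z-score of 0.428 there and none lay in its top 5%, whereas their median was 1.55 on JUND 5hmC replicate 1, 1.52 and 0.614 on the JUND 5mC arrays and 37.8 and 7.59 on the JUND C arrays. TGACTCAT itself scored 0.565 on the array, against 3.14 on JUND 5hmC replicate 1, 3.79 and 1.52 on the JUND 5mC arrays and 98.6 and 18.4 on the JUND C arrays. A low AP-1 score was thus shared with JUND 5mC replicate 2, while on JUND 5hmC replicate 1 7 of the 16 lay in the top 5%. The CRE TGACGTCA, at 69.1 and 13.9 on the JUND C arrays, scored 2.44 on JUND 5hmC replicate 2, within its top 5%. The 15 8-mers with TGACGTC or GACGTCA had a median of 0.181 there, with 2 in the top 5%. Among other fixed key sites, TGATGCAA scored 2.08 there, also within the top 5%, ATGAGTCA 0.121 and TTGCGCAA 0.880. The levels of the members below were shared with no other array. What set that array apart was not tested, and its results below belong to 1 array with no replicate that resembles it.

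The sequences that lead each strong group on that array are shown first, because they carry what follows. They are written 5′ to 3′ as they read on the synthesized (modified) strand, and capitals mark the E-box-like core.
TA group, first: aCATATGg
TA group, second: aCATATGt
CA/TG group, first: aCACATGt
CA/TG group, second: aaCACATG
GA/TC group, first: aCAGATGg
GA/TC group, second: aaCAGATG
CC/GG group, first: aaCAGGTG
CC/GG group, second: aCAGGTGt
GC group, first: aCAGCTGt
GC group, second: aaCAGCTG
These were the 8-mers with the highest mean of both orientations in their group, and each of them has A directly before the core.

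On JUND 5hmC replicate 2, 304 of the 719 members (42.3%, exact binomial 95% interval 38.6 to 46.0) lay in the top 5% of all 8-mers, a share that is 5.01% over all 8-mers. On the other 17 arrays between 20 and 76 members did, which is 2.78 to 10.6% with a median of 5.7%. The interval covers counting only, and overlapping 8-mers share probes, so that they are not independent. A z-score of 4 or more was reached by 212 members (29.5%) on that array, where 1.25% of all 8-mers reached it, and by 2 members on JUND 5hmC replicate 1, where 0.564% did. At the extreme, 18 of its 20 highest 8-mers and 72 of its 100 highest were members, against 0 or 1 of the 100 highest on each other array. The median member scored 1.49 there and 0.0862 to 0.508 on the other 17 arrays. So the members were high as a set on that array, while on the rest their median lay slightly above that of all 8-mers. The core CATATG, for example, ranked between 66 and 954 of all 4096 hexamers on the other 17 arrays, by the median of its 8-mers.

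The middle bases ordered the members on that array. The TA group was highest, with a median of 13.1 and all 48 of its members in the top 5%. The CA/TG group followed with a median of 8.29 and 89 of 95 members in the top 5%, then GC with 4.37 and 36 of 48, GA/TC with 2.47 and 53 of 96, and CC/GG with 1.31 and 43 of 96. The 4 remaining groups lay lower: AA/TT had a median of 0.847, AG/CT 0.707, AC/GT 0.685 and AT 0.559, with 2 to 16 members each in the top 5%. The last 3 of these medians differ by less than the quartile range within any of them. On the other 17 arrays the medians of the TA group ran only from 0.421 to 1.97, the highest on JUND C replicate 1, and those of the GC group from -0.356 to 0.434.

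Read by hexamer, 6 cores stood above the rest: CATATG (13.1), CACATG (10.0), CAGATG (8.81), CATGTG (7.14), CAGGTG (6.79) and CAGCTG (4.37, all median z-scores on JUND 5hmC replicate 2). Each holds at least 26 8-mers at a z-score of 4 or more among its 48, whereas 1 member with another core (with CATTTG) reached 4. CATATG had rank 2 among all 4096 hexamers on that array by the median of its 8-mers, behind TCCCCC, and its best rank on any other array was 66, on JUND 5hmC replicate 1. The other 5 strong cores ranked between 5 and 13 on that array, and their best ranks elsewhere ran between 175 and 954. TCCCCC led the hexamers on 9 other arrays too, and the C-rich 8-mers at the top of the list are carried by few probes; AGTCCCCC, for example, is carried by 1 probe. The CpG-bearing E-box CACGTG, outside the rule, had a median of 4.15 on the array, close to that of CAGCTG, and 40 of its 48 8-mers lay in the top 5%. Its highest median, 8.58, was however on CREB1 C replicate 2, an array on which the medians of the 6 cores were at most 1.38.

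The highest single 8-mer of the whole array was ACATATGG, carried by 17 probes. It scored 99.4 on JUND 5hmC replicate 2, 1.66 on JUND 5hmC replicate 1, 1.12 and 0.112 on the JUND 5mC arrays, and 2.76 and 1.10 on the JUND C arrays, and lay between -0.592 and 2.76 on all 17 other arrays. The palindromic ACATATGT scored 45.1 on that array and from -0.415 to 4.23 on the others. ACACATGT scored 32.4 there and at most 1.16 elsewhere. ACAGATGG, with the middle bases of a NEUROD1 or ATOH1 site, scored 32.7 there and at most 2.17 elsewhere. AACAGGTG, with the core of a TCF3 or ZEB1 site, scored 32.0 there and at most 0.802 elsewhere. ACAGCTGT, with the core of a MYOD1 site, scored 11.6 there and at most 1.71 elsewhere. These 8-mers were picked by their scores on JUND 5hmC replicate 2, so their place above all 17 other values is a description and no test. In the weak groups the best members were far lower on that array: ACATTTGG scored 4.92, AACACTTG 3.45, GCAACTGC 2.94 and ACAATTGA 2.30, and GCAACTGC was higher on another array, at 5.76 on CREB1 5mC replicate 1.

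Both orientations of a duplex have a score of their own on every array, plain cytosine included, since each score follows the probes that hold the 8-mer on the synthesized strand. On JUND 5hmC replicate 2 the scores of both orientations were often far apart. CAGATG had a median of 8.81 and its reverse complement CATCTG 0.713, and in 46 of 48 pairs of 8-mers the CAGATG orientation was the higher. CAGGTG had a median of 6.79 and CACCTG 0.428, and again 46 of 48 pairs favoured CAGGTG. In the CA/TG group CACATG and CATGTG were both high, with medians of 10.0 and 7.14, and CACATG was the higher in 31 of 48 pairs. In the GA/TC and CC/GG groups the higher orientation has fewer cytosines in the core on the modified strand (1 against 2 in the GA/TC group, 1 against 3 in the CC/GG group), while in the CA/TG group it has more (2 against 1). Among the weak cores, CAGTTG (1 cytosine) was higher than CAACTG (2) in 37 of 48 pairs, and CAAGTG (1) than CACTTG (2) in 26 of 48. Over the pairs of the GA/TC group, the score of the CAGATG orientation minus that of its reverse complement had a median of 8.38 on this array and of 0.325 to 1.36 on the other 17 arrays. CAGATG was the higher in 28 to 39 of 48 pairs on those arrays, so the direction was shared and the size was not. For the CC/GG group, the median of the CACCTG orientation minus its reverse complement was -6.57 on this array and -0.871 to 0.115 on the others. On those arrays CACCTG was the higher in 5 to 27 of 48 pairs. A core strand and the direction in which the probe runs from the glass change together in these pairs, so that the effects of the modified base and of the orientation cannot be told apart.

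The same was seen where the core is a palindrome and only the flanks turn round. aCATATGg scored 99.4 on JUND 5hmC replicate 2, and its reverse complement cCATATGt 8.65. gCATATGg scored 36.8 and cCATATGc 4.17, and tCATATGg 19.2 and cCATATGa 3.04. Over the 22 pairs of 8-mers with a CATATG core at any position the higher orientation exceeded the lower by a median of 14.8. It held fewer cytosines in 10 pairs, as many in 7 and more in 5, and the part of the cytosines in the difference was not tested. Before CATATG, the flanking base A gave a median of 39.7 (4 8-mers), G 14.3, T 10.5 and C 6.41, and after it G gave 29.2, T 13.9, C 10.8 and A 4.19. Over the 6 strong cores together the order was similar: A before the core had a median of 20.4 over 24 8-mers, against 3.57 for C, and G after it had 12.3, against 2.44 for A. On the other 17 arrays the median with A before the core ran from 0.0795 to 0.874. The place of the core within the 8-mer mattered little: CATATG starting at base 1, 2 or 3 had medians of 12.0, 13.1 and 14.3.

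The 13 members that are palindromes as a whole, which read alike on both strands, differed with their flanks as well as their core. ACATATGT (45.1), CCATATGG (21.5), CACATGTG (18.6), GCATATGC (13.4) and ACAGCTGT (11.6) were the highest on that array, so that a CA/TG member stood above a TA member, and GCAGCTGC (6.78) and CCAGCTGG (5.14) came next. TCATATGA scored 3.10 and was higher elsewhere, at up to 6.44, and TCAGCTGA scored 1.57. The 4 palindromes with a CAATTG core lay between -0.691 (CCAATTGG) and 1.95 (GCAATTGC).

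CATATG was picked for its high median on that array, so that the lower medians of its single-base neighbours are no test. The amounts depended on the place (positions counted from 1 at the 5′ end of the core, the base of CATATG first). Changes to the middle that keep the CANNTG form split into those that kept a high median, namely T3C (10.0), T3G (8.81) and A4G (7.14), and those that did not, namely T3A (1.00), A4C (0.713) and A4T (0.631). Outside the middle, the least lowered were A2G (2.84), C1A (2.57) and T5C (2.39), while G6C had a median of -0.123. A2G and T5C create a CpG, and those hexamers reached 3.91 and 3.59 on CREB1 C replicate 2. The elevation was not particular to CANNTG. The 1180 8-mers that hold CATG but neither a CANNTG nor CACGTG had a median of 1.57 on JUND 5hmC replicate 2, with 471 (39.9%) in the top 5%, close to the 1.49 and 42.3% of the members, and their median was at most 1.05 on any other array. Among them, the 33 with ACATGT had a median of 4.64, with 27 in the top 5%. Of those with AACATG 37 of 47 lay in the top 5%, of those with CGCATG 43 of 47 and of those with GCATGT 39 of 40.

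The probe signals behind the scores are described next. The scores rank with these same signals, so the probes give no separate support. The brightest 3 probes on JUND 5hmC replicate 2 with CATATG as their core are shown as examples, 5′ to 3′ on the synthesized strand, with the core in capitals.
Probe 1: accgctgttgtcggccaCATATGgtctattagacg
Probe 2: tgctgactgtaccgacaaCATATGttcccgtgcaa
Probe 3: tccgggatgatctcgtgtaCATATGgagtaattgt
Their signals minus local background were 16581.5, 15902 and 13687.5, which is 85.9, 82.4 and 70.9 times the median probe of that array, and they ranked 3, 4 and 6 of 40330. On the other 17 arrays the first lay between 0.0862 and 2.84 times the array's median, the second between 0.573 and 1.43, and the last between 1.03 and 4.20. No probe was saturated on JUND 5hmC replicate 2. These multiples have a small denominator, since the median probe lay 193 above its background there, against 522 to 7413.75 on the other arrays.

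Taking all 273 probes with CATATG and no other CANNTG, the median was 6.80 times the array's median on JUND 5hmC replicate 2 and 1.07 to 1.38 times on the other 17 arrays. Probes with CACATG alone had a median of 4.88 times, CAGATG 4.23, CATGTG 3.63, CAGGTG 3.58 and CAGCTG 2.66, while the 9 weak cores lay between 1.03 (CAATTG) and 1.44 (CAGTTG). The 35824 probes without any CANNTG had 0.925 times the median. Of the 50 brightest probes on that array, 48 held at least 1 of the 6 strong cores, which 4.25% of all probes hold. The 6 cores were chosen by their scores on this array, so that this share is a description and no test. Probes with 1 strong core had a median of 4.03 times (1676 probes) and those with 2 had 8.02 times (36 probes). The distance of CATATG from the linker end made a smaller difference: 5.30 times for 0 to 9 bases, 8.12 for 10 to 19 and 6.85 for 20 to 29.

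JUND 5hmC replicate 1, labelled as the same protein and DNA, did not show these levels. It had 51 of the 719 members (7.09%) in its top 5%. Its median over the TA group was 1.53, with 13 of 48 members in the top 5%, a larger share than over all 8-mers. CATATGGT, second of all 8-mers on replicate 2 with 55.4, scored 2.77 on replicate 1. Over the 719 members the Pearson correlation between both arrays was 0.223, where it was 0.534 to 0.846 between the replicates of the other 8 groups. These correlations describe 8-mers that share probes within an array.

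Members were next compared between modified and plain cytosine for each protein, a measurement that JUND 5hmC replicate 2 did not enter. The 17 other arrays were fitted together with limma, and a member was called at a Benjamini-Hochberg adjusted p below 0.05 over all 65121 8-mers. All comparisons of a protein share its C arrays. JUND 5hmC against C was not tested, since 1 array is left on the modified side. Members were counted by the bZIP half-sites they also hold: 30 hold TGAC or GTCA, the CRE half-site on either strand, 63 hold GCAA or TTGC, the half-site of C/EBP proteins, and 626 hold neither.

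With CREB1, 45 members were higher and 28 lower on 5mC than on C (6.26 and 3.89% of the members, against 2.73 and 6.89% of all 8-mers). After quantile normalization between arrays 29 were higher and 5 lower. Of the 63 members with GCAA or TTGC 32 were higher and none lower, and of the 30 with TGAC or GTCA 12 were lower and none higher. Among the 626 with neither, 13 were higher and 16 lower. The largest rise was that of cgCAATTG, with z-scores of 28.3 and 13.1 on the 5mC arrays and 1.00 and 1.83 on the C arrays (difference 19.3 ± 2.70 SE, limma adjusted p = 3.23e-05). cgCAACTG scored 15.1 and 13.0 on 5mC and 2.60 and 0.256 on C (difference 12.6 ± 1.26 SE, limma adjusted p = 5.13e-07), and tgCAATTG 13.5 and 8.72 on 5mC and -0.0216 and -0.0714 on C (difference 11.1 ± 1.33 SE, limma adjusted p = 4.71e-06). None of these 3 was high on JUND 5hmC replicate 2, where they scored 0.636 to 1.65. The largest fall was that of gtCATCTG, which scored 3.14 and 1.94 on 5mC and 15.1 and 26.2 on C (difference -18.1 ± 2.29 SE, limma adjusted p = 9.92e-06). CAGATGac (difference -8.87 ± 2.17 SE, limma adjusted p = 0.00895) and CATGTGac (difference -7.41 ± 1.54 SE, limma adjusted p = 0.00231) also fell, and all 3 carry the CRE half-site overlapping the core. By middle bases, 14 of 48 members of the AT group were higher and 5 of 48 of the TA group were lower. After quantile normalization both of the smaller falls lost their call (CAGATGac -2.79, limma adjusted p = 0.649, and CATGTGac -1.97, limma adjusted p = 0.617). CATGTGac also lost it with log2 scores (limma adjusted p = 0.066) and with the CREB1 arrays alone (limma adjusted p = 0.0965). CAGATGac also lost it with either CREB1 5mC array left out (difference -8.97 without replicate 1 and -8.76 without replicate 2). The other 4 named members kept theirs under all 11 alternatives. The total of 73 calls dropped to 45 without CREB1 5mC replicate 1 and to 39 without CREB1 C replicate 2. With any 1 of the 4 arrays left out, 17 to 27 of the 63 members were higher and 6 to 17 of the 30 were lower, the 17 each without CREB1 C replicate 1.

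With CREB1 on 5hmC, 14 members were higher and 16 lower than on C (1.95 and 2.23%, against 1.52 and 7.59% of all 8-mers). The split depended on the scaling: quantile normalization gave 11 higher and 4 lower, and log2 scores from the probe signals 25 higher and 8 lower. Among members with TGAC or GTCA 8 of 30 were lower and none higher, and among those with GCAA or TTGC 3 of 63 were higher. tgCAATTG scored 8.36 and 8.00 on 5hmC and -0.0216 and -0.0714 on C (difference 8.23 ± 1.33 SE, limma adjusted p = 0.000186). Of the 14 that rose 6 have a CATGTG core, the middle bases of an MITF site. tcCATGTG scored 5.72 and 5.31 on 5hmC and 0.468 and 0.621 on C (difference 4.97 ± 0.638 SE, limma adjusted p = 1.16e-05), and cCATGTGa scored 4.02 and 4.21 on 5hmC and 1.00 and 1.21 on C (difference 3.01 ± 0.611 SE, limma adjusted p = 0.00198). gtCATCTG, CAGATGac and gtCACATG fell most, with differences of -18.4, -9.04 and -6.97 (limma adjusted p = 8.3e-06, 0.00825 and 0.000166). gtCACATG scored 0.755 and -0.235 on 5hmC and 4.99 and 9.47 on C, and it was also high on JUND 5hmC replicate 2 at 14.2, where its CACATG core is among the strong ones. CAGATGac lost its call after quantile normalization (-2.76, limma adjusted p = 0.641) and gtCACATG with all 18 arrays in the fit (limma adjusted p = 0.107). CAGATGac also lost its call without CREB1 5hmC replicate 1 (difference -8.36). The 30 calls became 13 without CREB1 C replicate 2, and with replicate 1 or replicate 2 of CREB1 5hmC left out they became 16 or 19. Without CREB1 C replicate 1 they became 38, with 6 higher and 32 lower, and over these 4 fits 3 to 14 of the 30 members with TGAC or GTCA were lower.

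With ATF1, the close relative of CREB1, 17 members were higher and 20 lower on 5mC than on C (2.36 and 2.78%, against 1.65 and 2.71% of all 8-mers, so that the falls lay near the share of all 8-mers). Quantile normalization gave 23 higher and 13 lower, and log2 scores 12 higher and 23 lower. Again 12 of the 63 with GCAA or TTGC were higher and none lower, and 8 of the 30 with TGAC or GTCA were lower and none higher. cgCAACTG scored 8.53 and 8.17 on 5mC and 1.91 and 2.45 on C (difference 6.17 ± 1.26 SE, limma adjusted p = 0.00904), and gCAATTGg scored 4.95 and 4.89 on 5mC and 0.237 and -0.959 on C (difference 5.28 ± 0.75 SE, limma adjusted p = 0.00106). tgCAATTG rose by 5.06 (limma adjusted p = 0.0341). CAAATGac fell most, with 3.05 and 2.57 on 5mC and 9.11 and 9.58 on C (difference -6.54 ± 1.67 SE, limma adjusted p = 0.0294), and CATGTGac and gtCACATG differed by -6.18 and -5.76 (limma adjusted p = 0.0266 and 0.00657). Of the 17 that rose with ATF1 14 also rose with CREB1, which is 82.4% of the ATF1 list and 31.1% of the CREB1 list. Of the 20 that fell 7 also fell with CREB1. The comparisons share no arrays, but both come from 1 fit with a shared spread per 8-mer, so the lists are not independent. The overlap over all 8-mers was not counted. Quantile normalization ended the calls of CAAATGac and CATGTGac (limma adjusted p = 0.198 and 0.14), log2 scores those of cgCAACTG and CATGTGac (limma adjusted p = 0.0606 and 0.125), and all 18 arrays in the fit those of the 3 falls (limma adjusted p = 0.0521 to 0.233). With each compared array left out in turn, tgCAATTG, cgCAACTG, CAAATGac and CATGTGac lost their call every time. Among those fits gtCACATG kept its call only without ATF1 C replicate 1. gCAATTGg kept its call under all 11 alternatives. The 37 calls dropped to 5 without ATF1 5mC replicate 1 or ATF1 C replicate 1, to 3 without ATF1 C replicate 2 and to 1 without ATF1 5mC replicate 2.

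With ATF1 on 5hmC, no member was higher and 8 were lower than on C (0 and 1.11%, against 0.220 and 2.59% of all 8-mers). An unadjusted limma p below 0.05 was reached by 65 of the 719 members and by 10449 of all 65121 8-mers, a larger share. Quantile normalization gave 5 higher and 6 lower, and log2 scores 4 of each. Of the 8, 5 hold TGAC or GTCA. CAAATGac scored 2.64 and 2.94 on 5hmC and 9.11 and 9.58 on C (difference -6.55 ± 1.67 SE, limma adjusted p = 0.0356). CATGTGac differed by -5.83 and gtCACATG by -5.63 (limma adjusted p = 0.0439 and 0.00845). With all 18 arrays in the fit none of these 3 was called (limma adjusted p = 0.0675 to 0.307), CAAATGac and CATGTGac were not called after quantile normalization or with log2 scores either (limma adjusted p = 0.294 to 0.707), and CATGTGac was not called with the replicate block (limma adjusted p = 0.0545). Without ATF1 5hmC replicate 2 the 8 calls became 2, without ATF1 C replicate 1 they became 1, and without ATF1 5hmC replicate 1 or ATF1 C replicate 2 none was left.

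With JUND, 4 members were higher and 10 lower on 5mC than on C (0.556 and 1.39%, against 1.68 and 0.909% of all 8-mers). All 14 belong to the 626 members with neither half-site, but without JUND C replicate 2 there were 8 of the 30 with TGAC or GTCA among the lower ones. The AG/CT members CAAGTGaa and aCAAGTGg rose: the first scored 2.89 and 3.56 on 5mC and -0.105 and 0.184 on C (difference 3.19 ± 0.623 SE, limma adjusted p = 0.0118), and the second 2.78 and 2.46 on 5mC and 0.161 and 0.342 on C (difference 2.37 ± 0.546 SE, limma adjusted p = 0.0266). aaCATTTG rose by 1.98 (limma adjusted p = 0.0403). CATATGgt, which on JUND 5hmC replicate 2 scored 55.4, fell to 0.0351 and 0.45 on 5mC, against 3.94 and 2.45 on C (difference -2.95 ± 0.663 SE, limma adjusted p = 0.0234). tCATCTGt and tCATTTGt differed by -2.84 and -2.79 (limma adjusted p = 0.0383 and 0.0213). With the JUND arrays alone none of these 6 was called (limma adjusted p = 0.111 to 0.173). With all 18 arrays CATATGgt, tCATCTGt, aCAAGTGg and aaCATTTG lost their call (limma adjusted p = 0.0566 to 0.902), and with log2 scores tCATCTGt, aCAAGTGg and aaCATTTG did (limma adjusted p = 0.0783 to 0.128). In the fit with all 18 arrays the difference of CATATGgt stayed at -2.95, and its 55.4 on JUND 5hmC replicate 2 entered the spread. The 14 calls became 1 without JUND 5mC replicate 1, 3 without JUND 5mC replicate 2, 4 without JUND C replicate 1 and 30 without JUND C replicate 2.

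The proteins were compared in their response by testing the difference of the differences in the same fit. For 5mC minus C, the difference was higher with CREB1 than with JUND for 10 members and lower for 2, which is 1.39 and 0.278% of the members, against 0.693 and 3.16% of all 8-mers (limma, adjusted over all 8-mers). No member was called between CREB1 and ATF1 on 5mC (42 with an unadjusted p below 0.05), where 0.0261% of all 8-mers were higher and 0.281% lower. Between CREB1 and ATF1 on 5hmC none was called either (30 with an unadjusted p below 0.05, and 0.00461% higher and 0.210% lower over all 8-mers), nor between ATF1 and JUND on 5mC (30, with 0.00461% and 0.0154%). The absence of a call there does not show that the responses were alike. How many of all 8-mers had an unadjusted p below 0.05 was not counted for these differences. The 42, 30 and 30 are therefore not read as an excess among the members.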

How the data were processed

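Each of the 18 arrays has a deposited median signal and median local background for each of 40330 probes, a linear intensity per the file headers, and a column of z-scores per 8-mer, a score made by the authors. The sources used here give neither the score's formula nor the scanner. Each score column ranked with the background-subtracted signal of its own array's probes that hold the 8-mer on the synthesized strand (Spearman 0.957 to 0.975), less with probes that hold it on the printed strand (-0.0804 to 0.507). Members were carried by 11 to 25 probes (median 17). The 409 8-mers on no probe were left out, and 65121 were tested. Replicate arrays were averaged as 2 per group, and their number limits the precision.

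limma 3.58.1 (R 4.3.3) was fitted to the z-scores of 17 arrays with a mean per group, a mean-variance trend and two-sided tests, adjusted after Benjamini-Hochberg at 0.05 (8 residual and 12.8 prior degrees of freedom). JUND 5hmC replicate 2 was left out because its values chose the members. The spread is shared by all groups. The script was tested on simulated data. Shares have exact (Clopper-Pearson) intervals from scipy 1.17.1. Named 8-mers were the top 2 of each middle-base group by the mean of both orientations, the 3 largest rises and falls per comparison among calls without overlapping arrays, palindromes, fixed key sites and the neighbours of the leading core. ACATGT, CATATGGT and AGTCCCCC were named after their values were seen, as were the 6 strong cores (at least 24 of 48 8-mers at a z-score of 4 or more). The members and lists were chosen with earlier results of these data known. Alternatives were a replicate block, other arrays in the fit, no trend, quantile normalization, scores recomputed from probe intensities, a minimum of 10 probes and leaving out each array.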

Additional observations from a re-analysis of the deposited data

Results flagged for a closer look

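For 4 of the named members the effect of 5mC against C differed between CREB1 and JUND by the test of the difference itself (limma, adjusted over all 8-mers). The value given is the CREB1 effect minus the JUND effect in z-score units. It was 19.4 for CGCAATTG (limma adjusted p = 0.00376), 9.44 for CGCAACTG (limma adjusted p = 0.00271) and 10.8 for TGCAATTG (limma adjusted p = 0.00127), all of which hold GCAA. It was -13.9 for GTCATCTG (limma adjusted p = 0.0143), which holds GTCA. These 4 were named for their large CREB1 changes on 5mC in the same fit, so each value contains the effect that picked the member. The differences between proteins were not repeated under the alternatives. For GTCATCTG the CREB1 effect alone was -18.1, and -5.15 after quantile normalization.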

How the results depend on the processing

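The share of members in the top 5% on JUND 5hmC replicate 2 ran from 41.4 to 44.9% under 5 of 6 alternatives. It was 55.5% with the mean of both orientations, which counts 366 merged entries in place of 719 members. All 6 reuse the array that chose the members, so they describe the scoring and are no test of the share. The share at a z-score of 4 or more became 34.6% at a threshold of 3, 23.2% at 6 and 35.2% with the mean of both orientations. With all 18 arrays in the fit, which takes the array that chose the members into the spread, the members called were 13 for CREB1 5hmC, 20 for ATF1 5mC, 2 for ATF1 5hmC and 4 for JUND 5mC. With only the arrays of the protein compared they were 19, 58, 20 and 0. Quantile normalization gave 34 for CREB1 5mC, 15 for CREB1 5hmC and 29 for JUND 5mC, and log2 scores from probe signals gave 48 for CREB1 5mC and 25 for JUND 5mC. Leaving out each array gave 39 to 59 calls for CREB1 5mC, 13 to 38 for CREB1 5hmC, 1 to 5 for ATF1 5mC, 0 to 2 for ATF1 5hmC and 1 to 30 for JUND 5mC; a lone array was then assumed to vary like the other groups. The cause of these shifts was not tested. With the replicate number as a block (replicate block) the calls were 68, 26, 31, 6 and 15, against 73, 30, 37, 8 and 14 without it, for CREB1 5mC, CREB1 5hmC, ATF1 5mC, ATF1 5hmC and JUND 5mC. Same-numbered arrays of the compared groups deviated together with correlations of only -0.104 to 0.218, so the numbers were not taken to pair the arrays. Of 297 repeats over the named members, 213 kept their call, 84 lost it and 0 changed sign. Signal over background was lowest on JUND 5hmC replicate 2, with a median ratio of 1.62.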
